A study of Homo sapiens with 4 samples.

Results

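ESS2, formerly named DGCR14, and 8 genes that lie around it at 22q11.2 were followed in human prostate cancer cells in which ESS2 was knocked down. The 9 genes were chosen by their place on chromosome 22 rather than by their values, though earlier results of these data were known. All 9 were found among 25121 genes with a symbol on the array. Each had 1 probe whose accession was the same in both annotation releases of the array. The neighbours were TSSK2, GSC2, DGCR2, SLC25A1, CLTCL1, HIRA, MRPL40 and DGCR8.

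The data are 4 one-colour Agilent arrays, 1 for each of PC3-shC, PC3-shESS2, DU145-shC and DU145-shESS2. PC3 and DU145 are established, androgen-insensitive prostate cancer cell lines, shC is a short hairpin RNA against luciferase and shESS2 a hairpin against ESS2. Per the labels the hairpins were delivered by lentivirus into cells grown in RPMI1640 with serum, while the methods of the study describe, for PC3, transfection of a hairpin plasmid and puromycin selection. Whether the selected cells were a pool or a clone, and how many hairpin sequences were used, are not given in the sources used here. With 1 array per condition, no difference within a cell line had a replicate check and no p-value could be given for it, so each value carries only the error that the scanner software, Feature Extraction, assigned to its spot. The arrays of each line came from a slide and scan of their own, so the cell line and the slide cannot be told apart.

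Chromosome band 22q11.2 is known for the deletion found in DiGeorge and velocardiofacial syndromes, which removes 1 copy of a run of neighbouring genes, and several of these genes are named DGCR for the DiGeorge critical region. ESS2 encodes a nuclear protein found with the spliceosome that also acts as a coregulator of transcription. Its neighbours do unrelated work, in germ cells, at the membrane, in mitochondria, on chromatin and in microRNA processing. A hairpin acts on transcripts it pairs with. Its sequence was not used here, so neither a match to a neighbour nor an overlap with the ESS2 probe could be checked.

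The gene order read from RefSeq starts with DGCR2, followed by ESS2 with TSSK2 inside it on the opposite strand, then GSC2, SLC25A1, CLTCL1, HIRA, MRPL40 and, farther along, DGCR8. In the promoter table, whose build is GRCh38.p14, the start of GSC2 lies 5.64 kb from that of ESS2, TSSK2 13.3 kb, DGCR2 22.2 kb, SLC25A1 34.1 kb, CLTCL1 147 kb, HIRA 287 kb, MRPL40 288 kb and DGCR8 936 kb. HIRA and MRPL40 stand head to head, with starts 812 bases apart. The promoter windows of 5 members are printed because they set the target gene beside the pair nearest to it, neither of which was well above background on any array, and beside the pair that shares 1 intergenic stretch. Each window holds 250 bases before the start and 50 after it, 5′ to 3′ on the gene's own strand, from RefSeq. In ESS2 and TSSK2 the capitals mark a GC box, a CCAAT box or, in ESS2 alone, a cyclic AMP response element, and in GSC2, HIRA and MRPL40 they mark GC boxes.
ESS2 (chr22:19144602-19144901, minus strand): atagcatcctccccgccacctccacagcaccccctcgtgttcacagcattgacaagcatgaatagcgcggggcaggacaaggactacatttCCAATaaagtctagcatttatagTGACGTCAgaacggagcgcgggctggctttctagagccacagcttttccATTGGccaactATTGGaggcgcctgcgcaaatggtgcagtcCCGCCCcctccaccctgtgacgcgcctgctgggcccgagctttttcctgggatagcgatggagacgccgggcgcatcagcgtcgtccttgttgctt
TSSK2 (chr22:19131058-19131357, plus strand): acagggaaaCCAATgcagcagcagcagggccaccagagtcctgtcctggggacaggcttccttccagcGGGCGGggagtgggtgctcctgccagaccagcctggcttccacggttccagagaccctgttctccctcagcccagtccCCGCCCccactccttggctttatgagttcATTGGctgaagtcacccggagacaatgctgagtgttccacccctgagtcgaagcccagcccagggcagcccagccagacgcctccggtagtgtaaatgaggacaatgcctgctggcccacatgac
GSC2 (chr22:19150243-19150542, minus strand): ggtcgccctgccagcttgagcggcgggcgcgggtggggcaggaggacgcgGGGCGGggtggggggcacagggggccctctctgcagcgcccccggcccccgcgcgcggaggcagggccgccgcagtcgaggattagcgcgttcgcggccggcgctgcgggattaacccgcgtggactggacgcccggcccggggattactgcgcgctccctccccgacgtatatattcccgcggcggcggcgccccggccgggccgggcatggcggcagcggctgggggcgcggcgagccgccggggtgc
HIRA (chr22:19431684-19431983, minus strand): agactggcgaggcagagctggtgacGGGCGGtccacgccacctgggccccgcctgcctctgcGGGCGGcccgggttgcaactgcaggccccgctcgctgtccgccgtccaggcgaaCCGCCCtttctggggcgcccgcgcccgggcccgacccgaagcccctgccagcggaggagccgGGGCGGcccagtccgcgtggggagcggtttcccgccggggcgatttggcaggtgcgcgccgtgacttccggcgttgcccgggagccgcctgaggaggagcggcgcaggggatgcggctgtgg
MRPL40 (chr22:19432295-19432594, plus strand): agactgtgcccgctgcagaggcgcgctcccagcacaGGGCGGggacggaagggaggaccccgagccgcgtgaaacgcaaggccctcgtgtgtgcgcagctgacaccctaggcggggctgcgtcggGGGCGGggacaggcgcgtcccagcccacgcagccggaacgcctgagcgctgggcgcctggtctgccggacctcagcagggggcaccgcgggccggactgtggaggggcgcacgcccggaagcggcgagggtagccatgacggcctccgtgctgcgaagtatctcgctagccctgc

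All 9 members matched the promoter table. Of 5 motifs searched on both strands, the GC box GGGCGG was in 9 of 9 member windows and in 45.0% of all 35116 promoter windows. The CCAAT box CCAAT was in 5 of 9 and in 34.6% of all windows. The cyclic AMP response element TGACGTCA was in 1 of 9, ESS2, where it began 136 bases before the start, and in 1.85% of all windows. The TATA box TATAAA was in 1 of 9, again ESS2, on the reverse strand 143 bases before the start, and in 11.5% of all windows. The NFAT core GGAAA was in 5 of 9 and in 61.2% of all windows. The motifs were chosen after the ESS2 window had been read, and a match is a description of the letters only. In that window 1 match of the NFAT core shared bases with a CCAAT box. GC content of the windows ran from 58.0% in ESS2 to 81.3% in CLTCL1, and the median over all windows was 58.7%.

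ESS2, the targeted gene, was lower with shESS2 than with shC in both cell lines. Its processed signal, a background-subtracted brightness in arbitrary units, was 133 ± 13.4 (spot error) in PC3-shC, 53.6 ± 5.65 in PC3-shESS2, 85.7 ± 8.74 in DU145-shC and 17.3 ± 2.36 in DU145-shESS2. Both knockdown arrays lay below both control arrays, and all 4 spots were well above background by the software's flag. The DU145-shESS2 spot was the nearest to the floor, as the lowest signal well above background on that array was 8.15. Before background subtraction the median pixel of the ESS2 spot read 187.5, 95, 131 and 46 on the same arrays in that order, over local backgrounds of 27, 25, 24 and 25.

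After each array was scaled to its 75th percentile, the log2 ratio of ESS2 in shESS2 over shC was -1.45 in PC3 with a combined spot error of 0.21, and -2.35 in DU145 with an error of 0.25. The remaining level was 36.5% of control in PC3, a 2.74-fold drop, and 19.6% in DU145, a 5.09-fold drop. The ratios differed by 0.90 between the lines, with an error of 0.32 from the spots alone, and with 1 array per condition this difference was not tested. One processing alternative changed the size. With normexp background correction and an offset of 50, which adds to every value and so shrinks ratios of dim spots, the log2 ratio was -0.90 in PC3, short of 2-fold, and -1.13 in DU145.

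**Figure D1:**
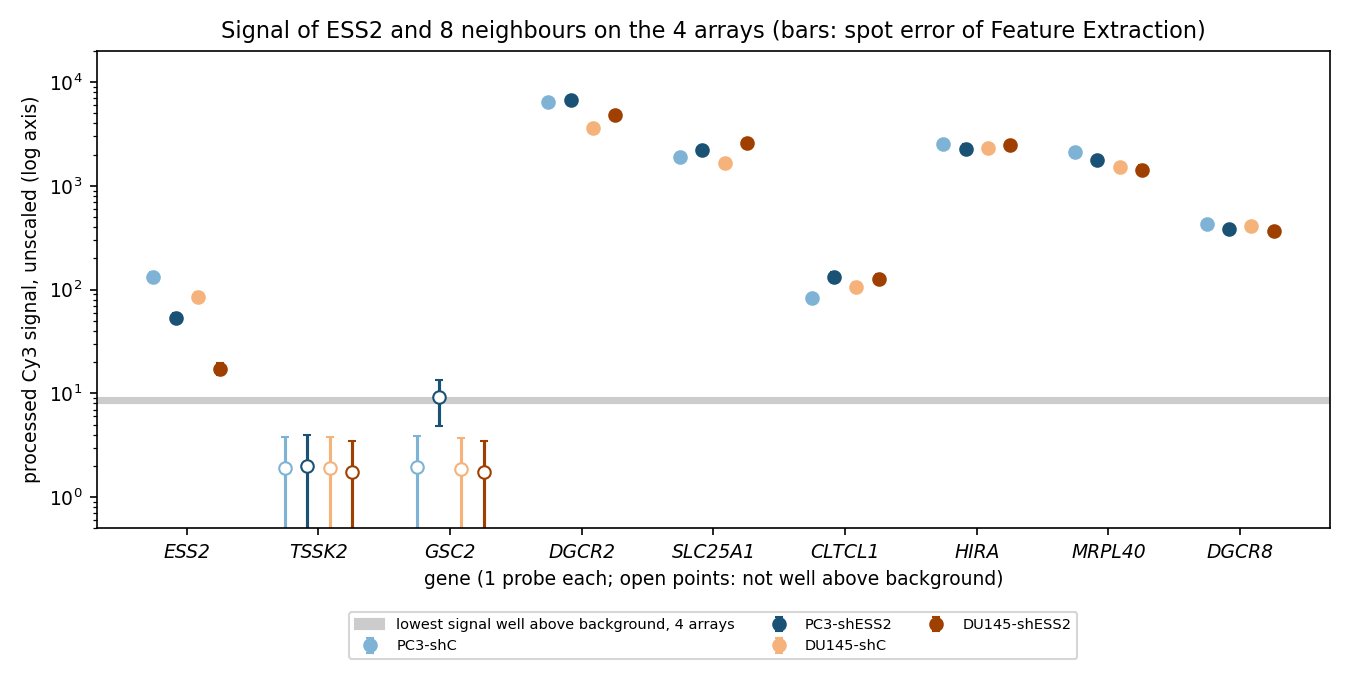
Processed signal of ESS2 and its 8 neighbours on the 4 arrays, on a log axis, with the software's spot error as bars, which are mostly smaller than the points and run off the axis for TSSK2 and GSC2. ESS2 falls from 133 to 53.6 in PC3 and from 85.7 to 17.3 in DU145, while open points mark spots that were not well above background.

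Among all genes compared within a line, which were those well above background on at least 1 of its 2 arrays, the drop of ESS2 was deep but not the deepest. In PC3, 289 of 16764 genes had a lower ratio than ESS2, and 649 genes, 3.87%, were more than 2-fold lower. In DU145, 26 of 16842 genes had a lower ratio, and 416 genes, 2.47%, were more than 2-fold lower. Counted in either direction, 7.75% of the genes in PC3 and 4.83% in DU145 passed 2-fold. Over the 15478 genes compared in both lines, 39 genes, ESS2 among them, were more than 2-fold lower in both. At or under the ratio of ESS2 in both lines stood ESS2 and 8 other genes, none of them on the lists of 22q11.2 genes used here.

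**Figure D2:**
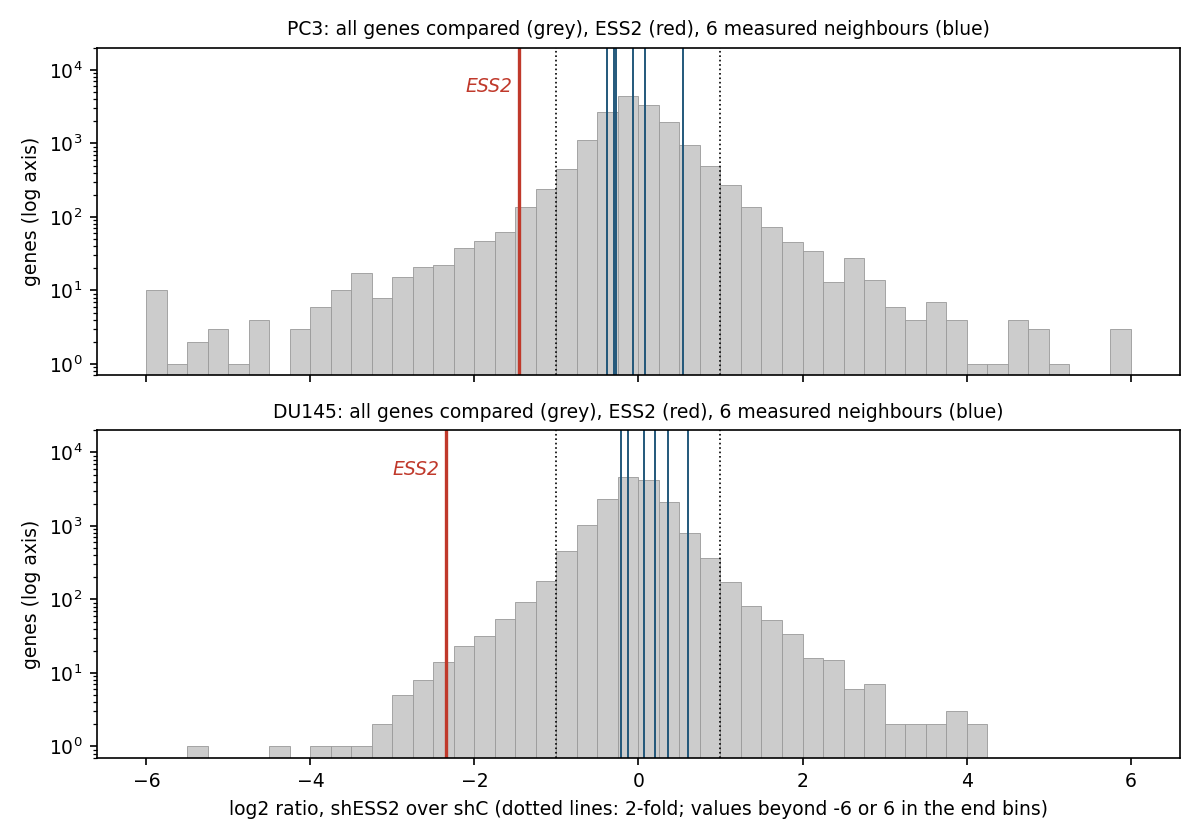
Log2 ratio of shESS2 over shC for all genes compared in PC3 (top, 16764 genes) and DU145 (bottom, 16842 genes), with the number of genes per bin on a log axis, ESS2 in red, the 6 measured neighbours in blue and dotted lines at 2-fold. ESS2 lies at -1.45 in PC3 and -2.35 in DU145, outside the 2-fold lines, and every measured neighbour lies between them.

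Scaled to the 75th percentile of its array, ESS2 stood at log2 -0.98 in PC3-shC, -1.31 in DU145-shC, -2.44 in PC3-shESS2 and -3.66 in DU145-shESS2. Neighbouring control levels in this order differed by log2 0.32, with PC3 higher and a spot error of 0.21 on that difference, which also spans slides. The knockdown levels lay further down, below both controls. The 5 genes whose pattern over the 4 arrays was nearest to that of ESS2, by the root mean square difference of log2 values centred on each gene's mean, were PLS3 at 0.27, LOC100128966 at 0.28, LOC112267909 at 0.42, TMEM30A at 0.43 and KREMEN2 at 0.47. The likeness was measured over 4 arrays and 14686 genes well above background on all of them. For TMEM30A it depended on the probe. The probe used had log2 ratios of -0.70 in PC3 and -1.39 in DU145. Another probe, also well above background on all 4 arrays, had -1.89 and -1.42, with the larger drop in PC3. PLS3, an actin-bundling protein, had signals of 5230, 2290, 2370 and 508 in PC3-shC, PC3-shESS2, DU145-shC and DU145-shESS2, with log2 ratios of -1.33 and -2.26 in PC3 and DU145.

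None of the 8 neighbours passed 2-fold in either line. Of the 8, 6 were well above background on all 4 arrays, and 0 of these 6 were more than 2-fold lower or higher in PC3 or in DU145, beside 7.75% and 4.83% of all genes compared. With 6 genes, a count of 0 is near those shares. The count of neighbours past 2-fold was also 0 under each of 9 processing alternatives in both lines. Only median scaling, quantile normalization, normexp correction and the authors' values could have changed it. Each of the 6 has 1 probe with unflagged spots well above background, and without a filter the other neighbours are raised to the floor. TSSK2 and GSC2 gave no ratio. TSSK2, a serine kinase of developing sperm, had signals of 1.91, 1.98, 1.90 and 1.74 in PC3-shC, PC3-shESS2, DU145-shC and DU145-shESS2, and its spot was not well above background on any array. GSC2, a homeobox gene related to goosecoid, had signals of 1.95, 9.23, 1.87 and 1.75 in the same order. Its PC3-shESS2 spot was the brightest of the 4, with an error of 4.36, but was also not well above background, so no fold is given. Among the relatives of TSSK2, TSSK1B, TSSK3, TSSK4 and TSSK6, only TSSK6 could be compared, in PC3 alone, with signals of 10.7 and 15.2 and a log2 ratio of 0.37. Of the relatives of GSC2, OTX2 was dim on all 4 arrays, and GSC was dim on the PC3 arrays and read 19.0 and 16.8 in DU145-shC and DU145-shESS2, a log2 ratio of -0.22 with an error of 0.32.

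DGCR2, an adhesion receptor of the cell surface, is the neighbour on the other side of ESS2 from GSC2. Its signals were 6350 ± 635, 6690 ± 669, 3610 ± 361 and 4770 ± 477 in PC3-shC, PC3-shESS2, DU145-shC and DU145-shESS2. The DU145-shESS2 array was the higher of its pair, and the PC3 arrays differed by less than their errors. The log2 ratios were -0.07 in PC3 and 0.36 in DU145, each with an error of 0.20. The sign in PC3 turned positive with quantile normalization and with the authors' scaled values, at 0.03 and 0.02.

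SLC25A1, the carrier that moves citrate out of mitochondria, had signals of 1900 ± 190, 2220 ± 222, 1660 ± 166 and 2590 ± 259 in the same order. The DU145-shESS2 array was the brightest of the 4. The log2 ratio was 0.08 in PC3 and 0.60 in DU145, a 1.52-fold higher level, with errors of 0.20, and in PC3 it was -0.02 with median scaling. Of 5 genes of citrate metabolism listed beside it, ACLY, CS, ACO1, IDH1 and ME1, 0 passed 2-fold in either line, and their log2 ratios ran from -0.66 to 0.23 in PC3 and from -0.29 to 0.64 in DU145.

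CLTCL1, a second clathrin heavy chain, was higher with shESS2 in both lines by less than 2-fold. Its signals were 83.1 ± 8.63, 133 ± 13.5, 107 ± 10.9 and 127 ± 12.9 in PC3-shC, PC3-shESS2, DU145-shC and DU145-shESS2. Both knockdown arrays were brighter than their controls, with log2 ratios of 0.54 in PC3 and 0.21 in DU145 and errors of 0.21. The PC3 value was 0.26 with normexp correction. Of the clathrin and adaptor genes CLTC, CLTA, CLTB, AP2A1 and AP2B1, 4 could be compared, as the CLTC probe was not well above background on any array, and 0 of 4 passed 2-fold in either line.

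HIRA and MRPL40, the head-to-head pair, gave small ratios in both lines. HIRA, a chaperone that places histone H3.3 outside replication, had signals of 2510 ± 251, 2280 ± 228, 2310 ± 231 and 2480 ± 248 in PC3-shC, PC3-shESS2, DU145-shC and DU145-shESS2. All 4 values lay close together, and the log2 ratios were -0.28 in PC3 and 0.06 in DU145. MRPL40, a protein of the large mitochondrial ribosomal subunit, had signals of 2110 ± 211, 1780 ± 178, 1520 ± 152 and 1430 ± 143. Both of its knockdown arrays were the lower of their pairs, with log2 ratios of -0.39 in PC3 and -0.13 in DU145. The errors were 0.20 for each of these ratios. Of 7 genes listed with HIRA, 0 passed 2-fold in either line, with log2 ratios from -0.65 to 0.31 in PC3 and from -0.55 to 0.37 in DU145. Of 7 other mitochondrial ribosomal protein genes, 0 passed, and their log2 ratios ran from -0.46 to 0.18 in PC3 and from -0.49 to 0.02 in DU145.

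DGCR8, which binds primary microRNA transcripts for the nuclease DROSHA, lies farthest from ESS2 of the 8. Its signals were 424 ± 42.5, 380 ± 38.1, 411 ± 41.2 and 364 ± 36.5 in PC3-shC, PC3-shESS2, DU145-shC and DU145-shESS2. The knockdown array was the lower in each line, with log2 ratios of -0.30 in PC3 and -0.22 in DU145 and errors of 0.20. The microRNA processing genes DROSHA, DICER1, XPO5, AGO2, TARBP2 and PRKRA were all compared, 0 of 6 passed 2-fold, and their log2 ratios ran from -0.43 to 0.18 in PC3 and from -0.46 to 0.28 in DU145. Between the control arrays, PC3-shC minus DU145-shC, the log2 differences of the 7 measured members ran from -0.68 for CLTCL1 to 0.50 for DGCR2, each with a spot error of 0.20 to 0.21.

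The median log2 ratio of the 6 measured neighbours was -0.17 in PC3, against -0.06 over all genes compared, and 0.13 in DU145, against -0.02. In PC3, 4 of the 6 were below 0 and 2 above, beside 55.7% of all genes below 0. The split was 5 to 1 with median scaling, beside 65.1% of all genes below 0, and 3 to 3 with quantile normalization and with the authors' values, beside 51.7% and 46.3%. In DU145, 2 were below and 4 above, beside 52.8% of all genes below 0. Other scalings shifted the median of all genes in PC3, to -0.16 with median scaling and 0.04 with the authors' values. Relative to it the neighbours stayed between -0.13 and -0.07 over 7 alternatives in PC3, and between 0.12 and 0.16 in DU145. The neighbour farthest from 0 on the log2 scale was SLC25A1 in DU145, at 0.60. With the authors' values it was CLTCL1 in PC3, at 0.63, against 0.62 for SLC25A1 in DU145.

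Genes farther along 22q11.2 were described in the same way. Of 38 genes listed for the interval besides the members, 34 had a probe with a matching symbol, and DGCR6, DGCR9, DGCR10 and CCDC188 were not matched. In PC3, 31 were compared, with a median log2 ratio of -0.24, 22 below 0 and 9 above, beside the 55.7% of all genes below 0. The split was 25 to 6 with median scaling and 20 to 11 with the authors' values, beside 65.1% and 46.3% of all genes. Relative to all genes this median lay at -0.18, and between -0.18 and -0.13 over 7 alternatives. In DU145, 32 were compared, with a median of -0.02, 17 below 0 and 15 above. Past 2-fold stood 1 of 31 in PC3 and 0 of 32 in DU145, which are 3.23% and 0% against 7.75% and 4.83% of all genes in either direction.

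The 1 gene was SERPIND1, which encodes heparin cofactor II, a plasma inhibitor of thrombin. Its signals were 494 and 146 in PC3-shC and PC3-shESS2, a log2 ratio of -1.90 with an error of 0.20. In DU145 its spot read 1.83 in DU145-shC, not well above background, and 9.09 in DU145-shESS2, just above the floor. Against that floor its DU145 ratio was 0.03, counted as under 2-fold, and only a bound. TBX1, the transcription factor best known from the deletion syndrome, was named after its values had been seen. It read 4470 and 3720 on the PC3 arrays and 61.1 and 43.5 on the DU145 arrays, with log2 ratios of -0.41 and -0.53. Both knockdown arrays were the lower of their pairs, short of 2-fold.

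**Figure D3:**
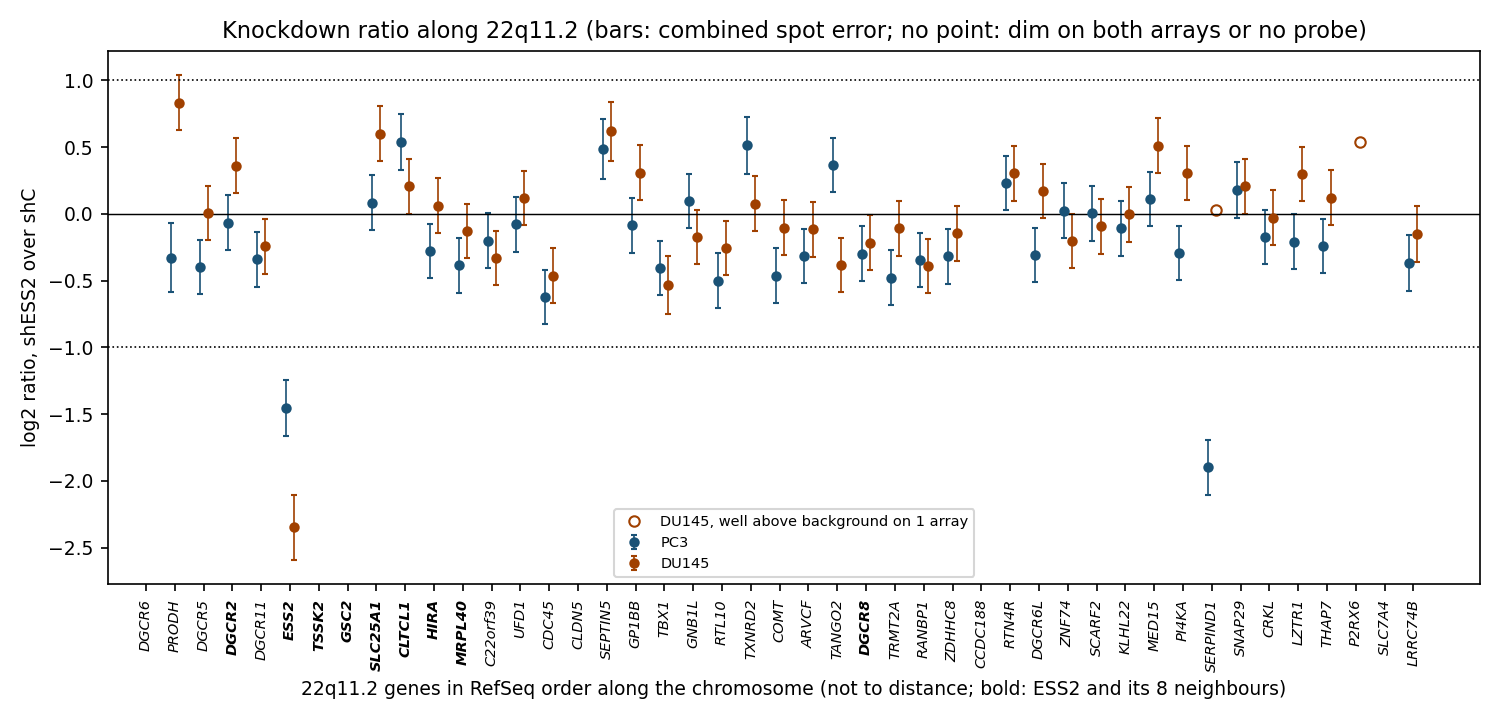
Log2 ratio of shESS2 over shC in PC3 (blue) and DU145 (brown) for genes of 22q11.2 in RefSeq order along the chromosome, equally spaced, with combined spot errors as bars, members in bold and dotted lines at 2-fold. ESS2 passes 2-fold in both lines, SERPIND1 does in PC3 at -1.90, and all other genes compared lie between the dotted lines.

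Of 42 partner and paralogue genes listed for the members, all 42 had a matching probe and 36 could be compared in each line. Past 2-fold were 1 of 36 in PC3, or 2.78%, and 2 of 36 in DU145, or 5.56%, beside 7.75% and 4.83% of all genes. Among the genes listed for ESS2, BAZ1B, RPS6KA3, CHD1 and FRA10AC1, which include chromatin remodelling and spliceosome factors, did not pass 2-fold in either line.

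Over both lines together, the knockdown effect could be tested with limma, with the cell line as a block, 1 residual degree of freedom and Benjamini-Hochberg adjustment over 17126 genes. No gene was called at an adjusted p of 0.05, 0 of 17126 or 0%, and 1028 genes had an unadjusted p under 0.05. Of the 7 members tested, 0 were called. ESS2 had an estimate of -1.90 with a standard error of 0.30 and the lowest p of the members, an unadjusted limma p of 0.0051 and an adjusted p of 0.75, and it was lower in 2 of 2 lines. Over 10 alternatives and the reported fit, its adjusted p by limma ran from 0.65 to 1. The other 6 members had estimates from -0.26 to 0.37, with unadjusted limma p from 0.14 to 0.62. Of the 31 interval genes tested, CDC45 and SEPTIN5 had an unadjusted limma p under 0.05, and of 37 partner and paralogue genes 2 did, H3-3A among them, with an adjusted p of 0.75 for each. These genes were named after their values had been seen.

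**Figure D4:**
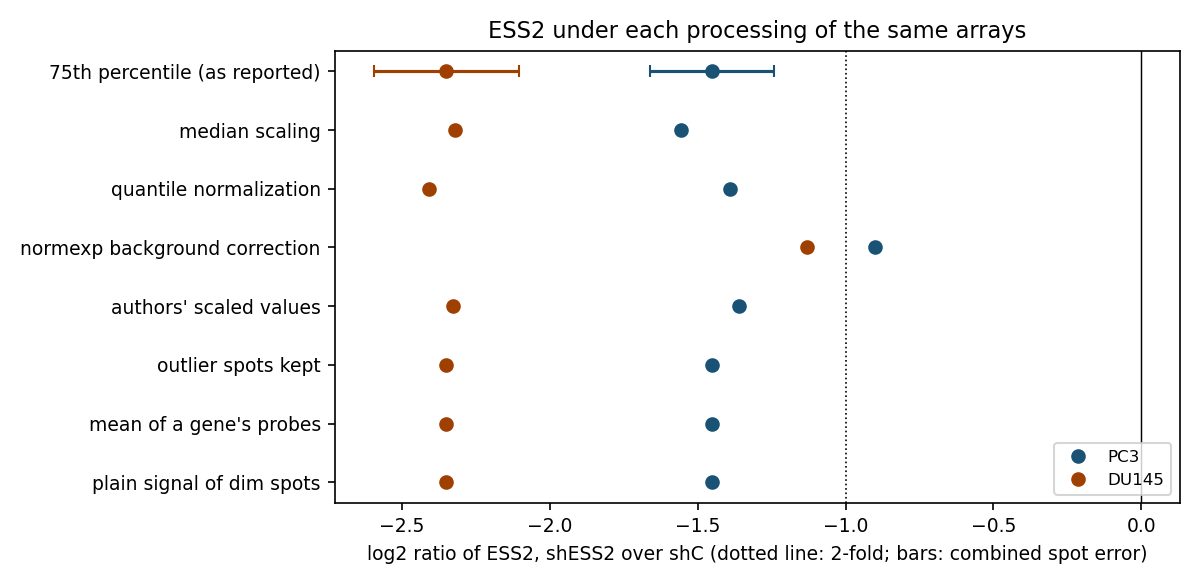
Log2 ratio of ESS2 in shESS2 over shC in PC3 (blue) and DU145 (brown) under each processing of the same arrays, with the combined spot error on the reported value and a dotted line at 2-fold. The PC3 value runs from -1.56 to -0.90 and the DU145 value from -2.41 to -1.13 over the 7 alternatives, with normexp correction giving the smallest drop in both lines.

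The labelled cell lines were checked against listed markers. KRT8, KRT18, EPCAM and CDH1, epithelial genes, were well above background on all 4 arrays, and CTNNA1, deleted in PC3, was not well above background on the PC3 arrays and was on the DU145 arrays. KLK3, a prostate luminal gene, was dim on all 4. Of 3 listed markers of other cells, a leukocyte and a fibroblast marker were present on every array. PTPRC ran from 27.2 to 60.0 and COL1A1 from 75.4 to 265, both well above background on all 4 arrays. PECAM1 read 338 and 16.4 in PC3-shC and PC3-shESS2 and was dim on the DU145 arrays, and EPCAM read 2120 and 357 in DU145-shC and DU145-shESS2. Their part in the result for ESS2 was not tested. GAPDH and ACTB, reference genes, had log2 ratios of 0.18 and 0.15 in PC3 and of 0.04 and -0.04 in DU145, and on none of the 4 arrays was a spot saturated.

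Precision was limited by the number of arrays. Between 10 spots of 1 probe on the same arrays, the log2 ratio had a median SD of 0.084 in PC3 and 0.082 in DU145, over 286 and 283 repeated probes. At signals within 2-fold of ESS2 there were 4 such probes, with a median SD of 0.23 and 0.27. This spread covers the spot only, and neither the hybridization nor the culture.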

How the data were processed

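RNA of 4 cultures was labelled with Cy3 from 0.1 µg of total RNA, per the labels. Each scan was read with Agilent Feature Extraction, version 12.1.0.3 for PC3 and 12.0.3.1 for DU145 per the file headers. The deposited values are an intensity per spot with background subtracted and no scaling between arrays. The authors also deposited a table of scaled intensity, whose columns equal the processed signal divided by 1 constant per array and have medians of 41.6, 47.5, 77.6 and 77.3. How that constant was chosen is not given in the sources used here, and the methods name GeneSpring with no settings.

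Signals were turned to log2 and centred, array by array, on the 75th percentile of 60901 non-control spots. That percentile was 263, 290, 212 and 218 in PC3-shC, PC3-shESS2, DU145-shC and DU145-shESS2, and 50.8, 52.2, 51.9 and 52.6% of the spots were well above background. Spots flagged as outliers, 82 to 121 per array, were left out and spots of 1 probe averaged. The brightest probe stood for a gene, and for ratios within a line a dim value was raised to the lowest signal well above background on its array. Symbols came from RefSeq accessions, which matched 35080 of 58201 probes. Array design and reference use different builds, so no probe coordinates are given.

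Combined errors of ratios come from the software's error of both spots. limma 3.58.1 in R 4.3.3 was fitted over both lines, to the plain values of dim spots, on genes that were well above background on 2 or more arrays. Alternatives were median scaling, quantile normalization, normexp correction with an offset of 50 on the median spot signal, the authors' values, outliers kept, the mean of probes, plain dim signals in the ratios, raised ones in limma, other filters and no block. The genes named are the members, listed genes past 2-fold in a line, 5 genes of nearest pattern, reference genes and markers, beside those said to be chosen after their values were seen and those given only as parts of a list. Some listed genes are not reported here. The members and lists were chosen with earlier results of these data known.

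In simulated data 200 of 200 genes changed by 2 on the log2 scale were recovered in PC3, over 16130 genes, and 200 of 200 in DU145, over 16306, with 0 false calls in each, and 200 of 200 with limma, over 17475 genes, with 13 false calls. The simulation carried spot noise only. Python 3.11.15, numpy 2.4.6, pandas 2.3.3 and matplotlib 3.10.9 were used.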

Additional observations from a re-analysis of the deposited data

Results flagged for a closer look

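Of the listed genes other than the members, 6 had ratios of opposite sign in the 2 lines, each beyond its own spot error and under every scaling tried. With 1 array per condition, none of these differences was tested, and the 6 were picked for their values. They come from lists of 38 interval genes and 42 partner and paralogue genes. The share of all genes that meet the same rule was not counted, so the 6 have no background beside them. The log2 ratios of shESS2 over shC in PC3 and DU145 were -0.33 and 0.83 for PRODH, proline dehydrogenase, 0.37 and -0.38 for TANGO2, -0.29 and 0.31 for PI4KA, a phosphatidylinositol kinase, and -0.21 and 0.30 for LZTR1. They were -0.21 and 0.37 for CABIN1, a subunit of the HIRA complex, and -0.25 and 0.25 for DICER1, which cuts microRNA hairpins. The spot error was 0.20 to 0.26 for each ratio. No member met this description.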

How the results depend on the processing

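ESS2 was lower with shESS2 in both lines under all 7 alternatives. Normexp correction with an offset of 50 moved its log2 ratio beyond the spot error, to -0.90 in PC3 and -1.13 in DU145. Median scaling, quantile normalization and the authors' values did not. Keeping outliers, averaging probes and plain dim signals could not change it, as ESS2 has 1 probe with unflagged spots well above background. The count of partner and paralogue genes past 2-fold in PC3 was 0 in place of 1 with median scaling. The count of interval genes past 2-fold in DU145 was 2 in place of 0 with the plain signal of dim spots, as SERPIND1 and P2RX6, dim in DU145-shC, are then no longer raised to the floor, and SERPIND1 moves from 0.03 to 2.27. Counts of neighbours past 2-fold and of members called by limma were 0 under every alternative run. For the neighbours, only the changes of scaling and of background correction could alter the count. Over all genes, added after the data were seen, the count past 2-fold was 1299 in PC3 and 813 in DU145, and 574 and 216 with normexp correction. The split of lower against higher calls in PC3 was 649 to 650, 803 to 511 with median scaling and 535 to 792 with the authors' values, and in DU145 416 to 397, and 77 to 139 with normexp correction. The limma fit paired the arrays by cell line. Without that block 29 genes had an unadjusted p under 0.05, against 1028 with it, and 0 were called in either. No pairing by replicate number could be made, as the labels give none. Dim signals limit TSSK2 and GSC2, for which no ratio could be given.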
